A study of Homo sapiens with 2 samples.

Results

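The genes described here are 50 components, inhibitors, feedback regulators and targets of the NF-kB pathway, chosen by gene symbol out of 18774 genes named on the array. A probe was found for 45 of them. Of these, 39 were above the background on both arrays, 3 on the control array alone and 3 on neither. No probe carried the symbol of TRAF2, RIPK1, IRAK4, BIRC3 or CSF2, so these 5 are not described.

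The cells were MDA-MB-231, an established and highly invasive human breast cancer line. One culture received 20 nM of an siRNA against NSD3L, as the longer product of the histone methyltransferase gene NSD3 is called, and the other a control siRNA with no specific target, whose concentration is not given in the sources used here. Both were transfected 2 times at an interval of 48 h, and RNA was taken 48 h later. Each siRNA was represented by 1 Illumina array of bulk RNA, so siRNA, culture and array cannot be told apart, no value has a replicate error and no test was possible. In bulk RNA, fewer expressing cells and less RNA per cell cannot be told apart.

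NF-kB transcription factors are dimers of REL-family subunits that are held in the cytoplasm by IkB proteins. Receptors for TNF, interleukin-1 and related ligands recruit adaptors and ubiquitin ligases that activate the IKK complex, which marks IkB for destruction and frees the dimers. The dimers then switch on inflammatory and survival genes together with their own inhibitors, among them NFKBIA and TNFAIP3, which close a negative feedback loop. MDA-MB-231 cells are known for a constantly active NF-kB pathway.

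All differences below are log2 ratios of the deposited intensity with the NSD3L siRNA over that with the control siRNA, so a positive value means higher with the NSD3L siRNA. Where a gene had several probes, the brightest was used. Readings up to a floor, 40.9 on the NSD3L siRNA array and 41.0 on the control array, were taken as background. Below the floor no ratio is given, and a gene above it on 1 array only has a bound. As a yardstick, the SD of the ratio over genes of similar brightness is quoted. It describes these 2 arrays and is not an error between cultures.

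The pathway as a whole lay close to the middle of the array. Of the 39 measured members, 22 (56.4%) read higher after NSD3L siRNA and 17 (43.6%) read lower, where 49.2% of all 10550 measured genes were higher and 50.7% lower. Their median log2 ratio was 0.05, against 0.00 for all genes, and 26 members (66.7%) differed by less than 1.2-fold, as did 64.9% of all genes. None was past 2-fold in either direction, against 0.341% of all genes higher and 0.607% lower. Past 1.5-fold lay 1 higher member, TNIP1, and 1 lower member, SOD2, or 2.56% each, where 3.63% of all genes were higher and 4.06% lower. No measured member differed by more than 2 SD of similarly bright genes, a mark passed upwards by 2.03% and downwards by 2.83% of all genes. The 3 members above the floor on the control array alone are outside these counts. Such genes can only read as lower, so their shared direction is not a result. Of all 18774 named genes, 1530 were above the floor on only 1 of the arrays, whichever it was. Among the 3 members, IL1RAP was at least 1.79-fold lower, by its brightest probe alone. At either threshold the members' share was below or near that of the array.

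**Figure D1:**
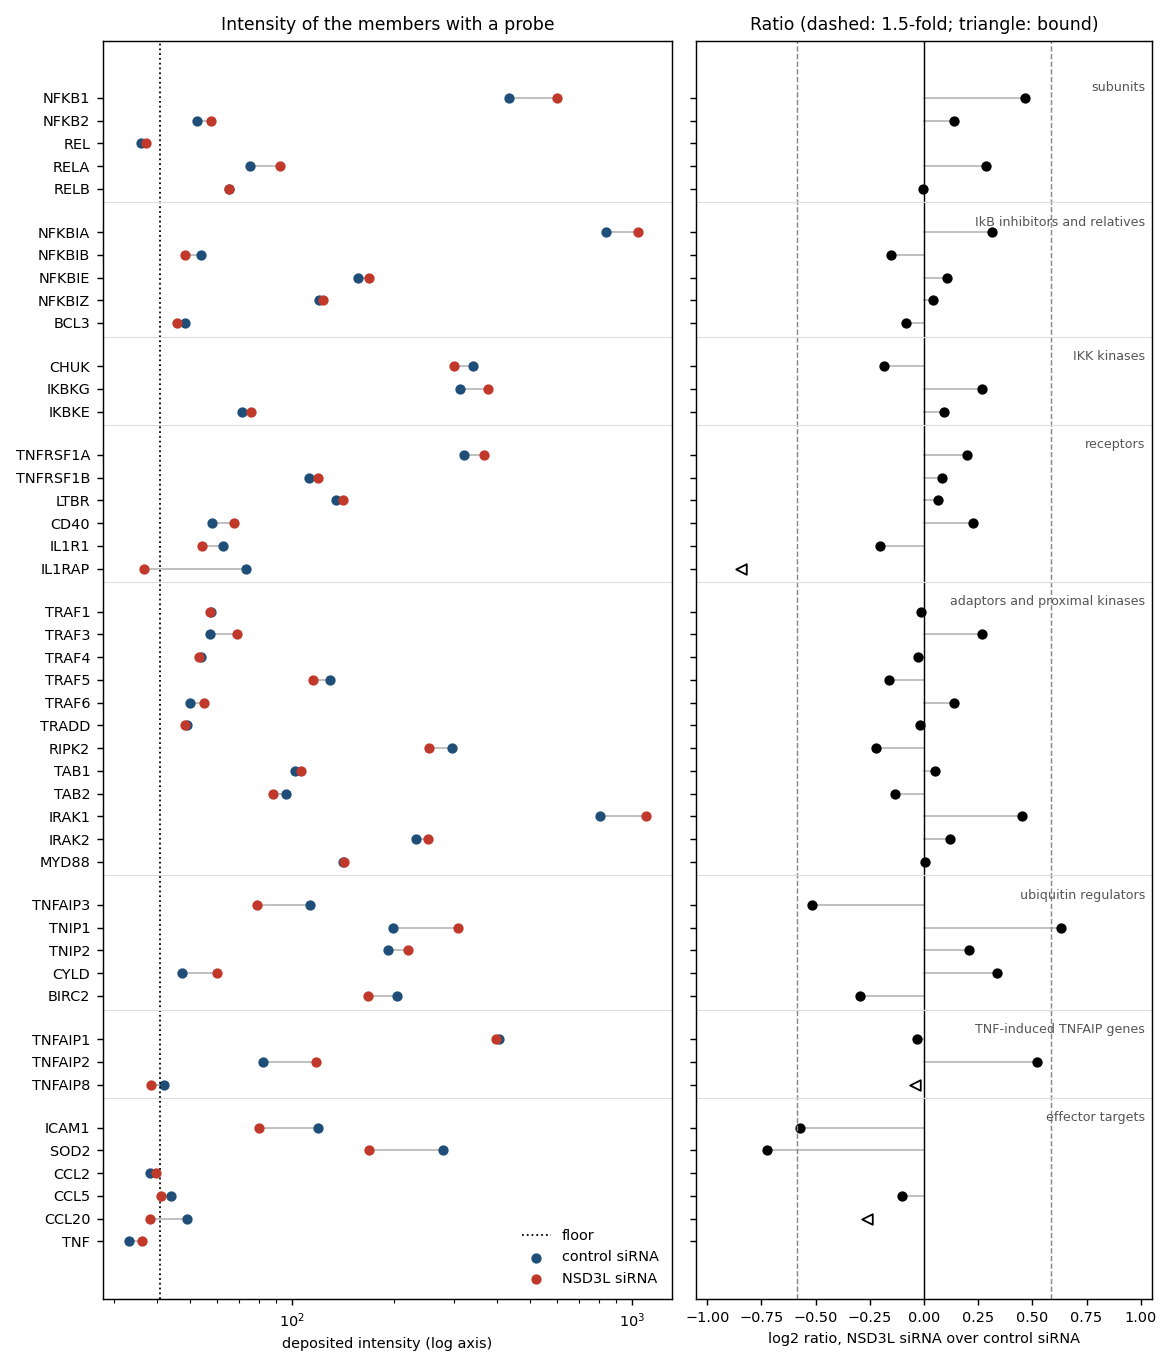
Left, the deposited intensity (log axis) of the 45 members with a probe on the control siRNA array (blue) and the NSD3L siRNA array (red), with the floor dotted. Right, the log2 ratio of the 39 members above the floor on both arrays (black points) and the bound of the 3 above it on the control array alone (open triangles), by class, with 1.5-fold dashed. TNIP1 at 0.63 and SOD2 at -0.72 are the measured members beyond the dashed lines.

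The promoters of the members past 1.5-fold, chosen by the size of their ratio, are shown first. Any match to the binding motif of the pathway's own factors is marked. RefSeq's start sites (GRCh38.p14, 250 bases before to 50 after each start) were searched on both strands for the kappaB decamer consensus. This motif opens with GGG, goes on with a purine, any base, A or T and a pair of pyrimidines, and ends in CC. Overlapping matches were kept, and capitals mark them. TNIP1 has 2 listed starts, and the one at chr5:151080985-151081284 (minus strand) holds a match that begins 42 bases before the start. SOD2 has 4 listed starts with no match, of which the first listed, chr6:159727335-159727634 (minus strand), is printed. IL1RAP, past 1.5-fold only as a bound, has 1 listed start without a match, at chr3:190513835-190514134 (plus strand).
TNIP1: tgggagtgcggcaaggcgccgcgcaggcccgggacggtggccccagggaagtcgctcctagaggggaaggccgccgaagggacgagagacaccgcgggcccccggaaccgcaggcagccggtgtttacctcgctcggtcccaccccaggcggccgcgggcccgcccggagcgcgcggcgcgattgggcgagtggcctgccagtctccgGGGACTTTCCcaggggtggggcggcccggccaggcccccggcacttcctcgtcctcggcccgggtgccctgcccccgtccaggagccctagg
SOD2: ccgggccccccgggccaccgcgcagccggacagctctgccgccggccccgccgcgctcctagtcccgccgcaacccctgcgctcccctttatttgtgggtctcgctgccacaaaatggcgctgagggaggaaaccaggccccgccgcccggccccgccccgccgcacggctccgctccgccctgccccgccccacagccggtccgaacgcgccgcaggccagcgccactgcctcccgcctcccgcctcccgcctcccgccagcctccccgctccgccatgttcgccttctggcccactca
IL1RAP: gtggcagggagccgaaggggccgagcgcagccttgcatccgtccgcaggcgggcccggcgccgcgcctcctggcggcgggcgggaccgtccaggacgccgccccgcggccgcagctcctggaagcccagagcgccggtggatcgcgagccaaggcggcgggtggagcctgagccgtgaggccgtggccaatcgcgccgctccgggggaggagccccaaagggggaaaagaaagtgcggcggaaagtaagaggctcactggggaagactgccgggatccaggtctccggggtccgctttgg

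For 4 further members whose products or regulation belong to the feedback loop or its targets, chosen after their values were seen, the stretch around the match is printed with 20 bases on either side. In NFKB1 (chr4:102501290-102501339, plus strand) the match begins 49 bases before a start, in NFKBIA (chr14:35404801-35404850, minus strand) 81 and in CCL20 (chr2:227813743-227813792, plus strand) 79 bases before. TNFAIP3 (chr6:137867172-137867233, plus strand) has a pair of matches, 67 and 55 bases before its start.
NFKB1: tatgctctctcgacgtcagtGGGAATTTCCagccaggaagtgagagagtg
NFKBIA: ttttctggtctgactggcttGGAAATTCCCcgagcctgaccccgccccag
TNFAIP3: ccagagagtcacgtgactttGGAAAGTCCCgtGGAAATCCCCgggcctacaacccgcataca
CCL20: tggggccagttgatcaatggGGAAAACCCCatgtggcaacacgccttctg

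The motif was present in 18 of 71 listed promoters of the members (25.4%) and in 5.91% of all 35116 promoters of that length. By gene, 15 of the 43 members with a listed promoter held it in at least 1 of them (34.9%), against 7.09% of all genes in the table. The members were chosen as components and targets of this pathway, so this share describes the list and not these arrays. Having the motif did not go with one direction of the ratio. Among the 12 measured members with a match, 7 had a positive and 5 a negative ratio, and the median was 0.09 on the log2 scale. Among the 21 measured members with a listed promoter but no match, 13 had a positive and 8 a negative ratio, and the median was 0.06. TNIP1 and TNFAIP3, both with a match, had ratios of opposite sign, and ICAM1 and SOD2, both among the lowest, had none in these windows. A match is a string of letters and not a measured binding site. A missing match does not show that a gene lacks a site, because only this string in these windows was searched. Members with and without a match are therefore not direct targets and other genes.

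Among the subunits, NFKB1, which encodes the p105 precursor of p50, read 604 after NSD3L siRNA against 436 in the control, a log2 ratio of 0.47 beside an SD of 0.40 for genes of that brightness. RELA, the p65 subunit and main activator of the canonical pathway, read 92.0 against 75.4, a ratio of 0.29. NFKB2, the p100 precursor of p52 in the non-canonical pathway, read 57.8 against 52.4, a ratio of 0.14. The canonical partners NFKB1 and RELA were thus both on the higher side. RELB, the partner of p52, read 65.1 against 65.2 and was the same on both arrays to 0.00 on the log2 scale. REL, most abundant in lymphoid cells, was below the floor at 37.3 and 35.9. The 4 measured subunits had a median log2 ratio of 0.21, which was 0.44 with each array's most frequent value subtracted, 0.14 without a floor and 0.11 with the trend over local gene density removed. RELA was 0.50 and 0.15 under the first and the last of these, and NFKB2 0.39 and 0.06. NFKB1 stood at the 93.3rd percentile of all measured genes.

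The IkB proteins, which retain the dimers, differed less. NFKBIA, the classic IkB alpha and itself an NF-kB target, was the brightest of them and read 1044 against 839, a log2 ratio of 0.32 beside an SD of 0.33. NFKBIE, IkB epsilon, read 168 against 156, a ratio of 0.11. NFKBIB, IkB beta, read 48.4 against 53.8, a ratio of -0.15, and its other probe was below the floor on both arrays. The nuclear IkB relatives NFKBIZ, a co-activator of secondary response genes, and BCL3, a partner of p50 and p52 homodimers, had ratios of 0.04 and -0.08. With 3 members higher and 2 lower, the class had a median of 0.04.

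Of the IKK kinases and their scaffold, CHUK, which encodes IKK alpha, read 300 against 341, a log2 ratio of -0.19. IKBKG, the regulatory subunit NEMO, read 376 against 313, a ratio of 0.27. A near-identical pseudogene copy, IKBKGP1, exists, so this reading may be shared between them. IKBKE, an IKK-related kinase of the innate antiviral response, read 75.9 against 71.2, a ratio of 0.09. IKBKB, the IKK beta kinase of the canonical pathway, is not one of the 50 genes but completes the complex. It was added after its value was seen and read 202 against 152, a ratio of 0.41 beside an SD of 0.39. The kinase subunits were thus on opposite sides of 0, both within about 1 SD of similarly bright genes.

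The receptors were measured mostly near their control levels. TNFRSF1A, the main TNF receptor of non-immune cells, read 368 against 321, a log2 ratio of 0.20, and TNFRSF1B, the other TNF receptor, read 119 against 112, a ratio of 0.08. LTBR, the lymphotoxin beta receptor, read 141 against 135, and CD40, the receptor for the T-cell ligand CD40L, read 67.7 against 58.0, ratios of 0.06 and 0.22. Both are routes into the non-canonical pathway. IL1R1, the signalling receptor for interleukin-1, read 54.5 against 62.7, a ratio of -0.20. The 5 receptors measured on both arrays had a median of 0.08, and IL1R1 was the only lower one among them.

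IL1RAP, the co-receptor that IL1R1 needs to signal, gave probes that disagreed. Its brightest probe, annotated to the transcript record NM_002182, read 73.4 in the control and 36.8, under the floor, after NSD3L siRNA, which bounds it as at least 1.79-fold lower. The other 2 probes, both annotated to NM_134470, read 46.1 against 41.8 and 43.4 against 43.1, log2 ratios of 0.14 and 0.01 just above the floor. Which of these readings reflects the gene's transcripts was not tested.

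The adaptors and receptor-proximal kinases were split evenly, 6 higher and 6 lower, with a median log2 ratio of 0.00. IRAK1, a kinase that carries the signal from interleukin-1 and Toll-like receptors to TRAF6, stood apart in size, at 1101 against 804, a ratio of 0.45 beside an SD of 0.33. Its relative IRAK2 read 251 against 231, a ratio of 0.12. MYD88, the adaptor that joins those receptors to the IRAK kinases, read 142 against 141, a ratio of 0.00. IRAK1 thus had the largest ratio of the class and MYD88 the one nearest to 0.

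Of the TRAF adaptors, TRAF3, which restrains the non-canonical pathway, read 69.1 against 57.4, a log2 ratio of 0.27. TRAF6, a ubiquitin ligase downstream of IRAK1, read 55.2 against 50.1, a ratio of 0.14, and TRAF5 read 115 against 129, a ratio of -0.16. TRAF1, an NF-kB-induced adaptor, had -0.01 and TRAF4 -0.03. Another TRAF4 probe of similar brightness read 53.6 against 50.8, a ratio of 0.08, so the sign of TRAF4 depended on the probe. RIPK2, the kinase of NOD receptors, read 253 against 296 and had the lowest ratio of the class, -0.22. TAB2, which docks the TAK1 kinase on ubiquitin chains, read 87.6 against 96.0, a ratio of -0.13, and TAB1, an activator of TAK1, had 0.05. TRADD, the TNF receptor adaptor, read 48.3 against 49.0, a ratio of -0.02. All measured adaptors except IRAK1 lay between -0.22 and 0.27.

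The ubiquitin regulators, which edit the chains that the adaptors build, held the widest differences among the signalling classes, with an SD of 0.47 over 5 genes. TNIP1, encoding ABIN-1, a ubiquitin-binding partner of A20 that dampens NF-kB, read 307 after NSD3L siRNA against 198 in the control. That is 1.55-fold higher, a log2 ratio of 0.63 beside an SD of 0.39, at the 97.2nd percentile of all genes. A dim second probe, annotated to an expressed sequence tag, read 49.8 against 48.8, a ratio of 0.03, so the difference rests on 1 probe. TNFAIP3, encoding A20 itself, went the other way at 78.6 against 113, 1.43-fold lower, a ratio of -0.52 beside an SD of 0.34. The partners of one inhibitory complex were therefore on opposite sides.

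CYLD, a deubiquitinase that also restrains the pathway, read 60.1 against 47.5, a log2 ratio of 0.34 beside an SD of 0.26. TNIP2, the ABIN-2 relative of TNIP1, read 220 against 191, a ratio of 0.21. BIRC2, the ubiquitin ligase cIAP1 of the TNF receptor complex, read 167 against 204, a ratio of -0.29. Of the negative regulators, TNIP1, TNIP2 and CYLD were higher and TNFAIP3 lower.

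**Figure D2:**
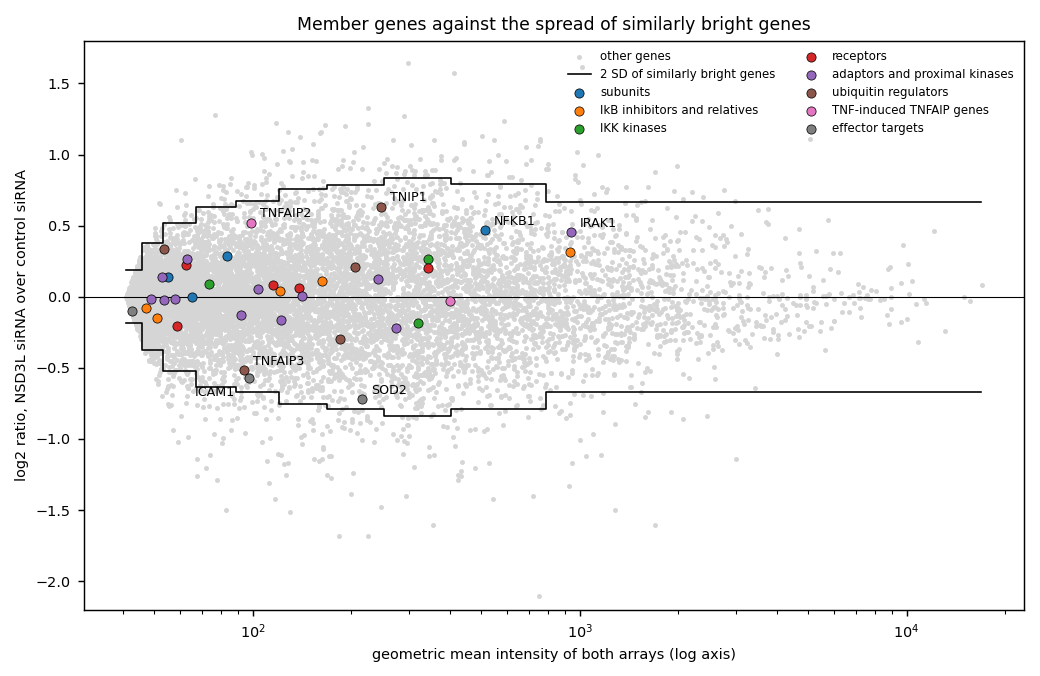
The log2 ratio of each measured gene against its geometric mean intensity over both arrays (log axis), members coloured by class and all other genes in grey. Black steps mark 2 SD in 10 equal groups of brightness, and every measured member lies between them, with SOD2 nearest to the lower steps.

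The genes named for their induction by TNF did not share a direction. TNFAIP2, a TNF-induced gene of membrane protrusions, read 118 against 82.2, 1.43-fold higher, a log2 ratio of 0.52 beside an SD of 0.34. TNFAIP1, an adaptor of a cullin ubiquitin ligase, read 397 against 406, a ratio of -0.03. TNFAIP8, a regulator of cell death, read 42.0 in the control and 38.5, under the floor, after NSD3L siRNA, a bound of at least 1.03-fold lower.

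SOD2 and ICAM1, both effector targets, had the lowest ratios among the 39 members measured on both arrays. IL1RAP, which has only a bound, is outside this ranking. SOD2, the manganese superoxide dismutase of mitochondria and a standard NF-kB target, read 168 against 278, 1.65-fold lower, a log2 ratio of -0.72 beside an SD of 0.39. It stood at the 2nd percentile of all measured genes. Its other probe was below the floor on both arrays, at 33.6 and 37.9. ICAM1, the leukocyte adhesion molecule, read 80.1 against 119, a ratio of -0.57 beside an SD of 0.34, at the 4.37th percentile.

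The chemokine genes were at or near the background. CCL20, the ligand of CCR6, read 49.1 in the control and 38.3, under the floor, after NSD3L siRNA, a log2 bound of -0.26 or lower. CCL5, which draws T cells and monocytes, read 41.1 against 44.1, a log2 ratio of -0.10. CCL2, the monocyte chemokine, at 39.7 and 38.3, and TNF, at 36.2 and 33.1, were above the floor on neither array. The 3 measured targets were lower, with a median of -0.57, and CCL20 could enter as a bound only because of its control reading. The class therefore rests on SOD2 and ICAM1, 2 probes on 1 pair of arrays.

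Genes of the same pathway from 2 further lists were set beside these. Of 36 other pathway genes, 32 were measured, 15 higher and 17 lower, with a median log2 ratio of -0.04 and none past 2-fold. TANK, a scaffold of the kinase TBK1, read 129 against 209, a ratio of -0.70, and TBK1 itself read 300 against 427, a ratio of -0.51. PELI1, a ubiquitin ligase of IRAK signalling, had -0.53, SQSTM1, the p62 scaffold, -0.50, and UBE2N, the enzyme that builds lysine-linked signalling chains with TRAF6, -0.49. On the higher side, CARD10, an adaptor between G-protein-coupled receptors and IKK, read 108 against 74.6, a ratio of 0.53.

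Of 30 other NF-kB target genes, 22 were measured, and 11 were higher and 11 lower around a median log2 ratio of 0.01. Past 2-fold lay 3, all lower, where 0.341% of all measured genes were higher and 0.607% lower. This list was chosen with earlier results of these data known, so the count is descriptive only. CXCL8, a chemokine for neutrophils, read 760 against 2149, the prostaglandin synthase gene PTGS2 read 70.9 against 176 and IL6 read 110 against 243, ratios of -1.50, -1.31 and -1.14. IL1A read 45.1 against 89.2 and IL1B 41.2 against 78.6, ratios of -0.98 and -0.93 with the NSD3L siRNA readings just above the floor. CCND1, encoding cyclin D1, read 4466 against 3105, a ratio of 0.52. The SD over these targets was 0.59, against 0.29 over the 39 members and 0.33 over all measured genes. These 5 inflammatory genes were lower by more than any of the 39 measured members, and the other 6 lower measured targets and the 11 higher ones were not. IL1RAP, outside the 39, had a log2 bound of -0.84 or lower by its brightest probe, and its other probes were not lower.

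Local gene density moved with the ratio over the whole array, and its values are given beside the members. Density counts the protein-coding neighbours that lie up to 500 kb to either side of the middle of a gene. Across 10173 genes, which are not independent, Spearman's rho between density and log2 ratio was 0.322, and the median ratio went from -0.11 in the tenth of genes with the fewest neighbours to 0.12 in that with the most. Across the 39 members rho was 0.0992. TNFAIP3 with 4 neighbours, SOD2 with 9 and ICAM1 with 34 were lower. NFKB1 with 6, NFKBIA with 8, IRAK1 with 39 and RELA with 41 were higher. The median over all measured genes was 11 neighbours. The part of density in the members' ratios was not tested. With the density trend removed, the log2 ratio of ICAM1 was -0.69, that of SOD2 -0.66 and that of TNFAIP3 -0.40.

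**Figure D3:**
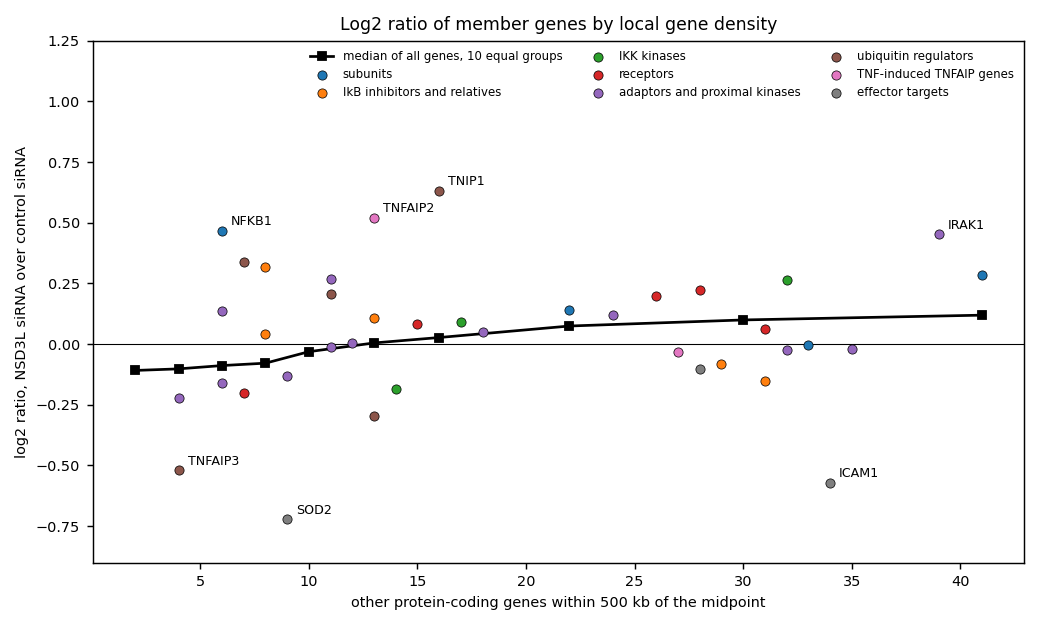
The log2 ratio of the 39 measured members against local gene density, coloured by class, with the median of all genes in 10 equal groups of density as black squares. The medians climb from -0.11 to 0.12, and the members with the largest ratios lie on both sides of the line at low and at high density.

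The ratios of dim members were also tied to the background that the intensities keep. With each array's most frequent value subtracted, the log2 ratio of ICAM1 was -0.89, of SOD2 -0.86, of TNFAIP3 -0.83, of TNFAIP2 0.81, of TNIP1 0.74, of CYLD 0.66 and of TRAF3 0.61. Under that setting 4 members were more than 1.5-fold higher and 3 more than 1.5-fold lower, and still none past 2-fold. TNIP1 was 0.33 as the mean over its probes. IRAK1 and NFKBIA, both bright, stayed at 0.32 to 0.47 and 0.31 to 0.40 over all settings tried.

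**Figure D4:**
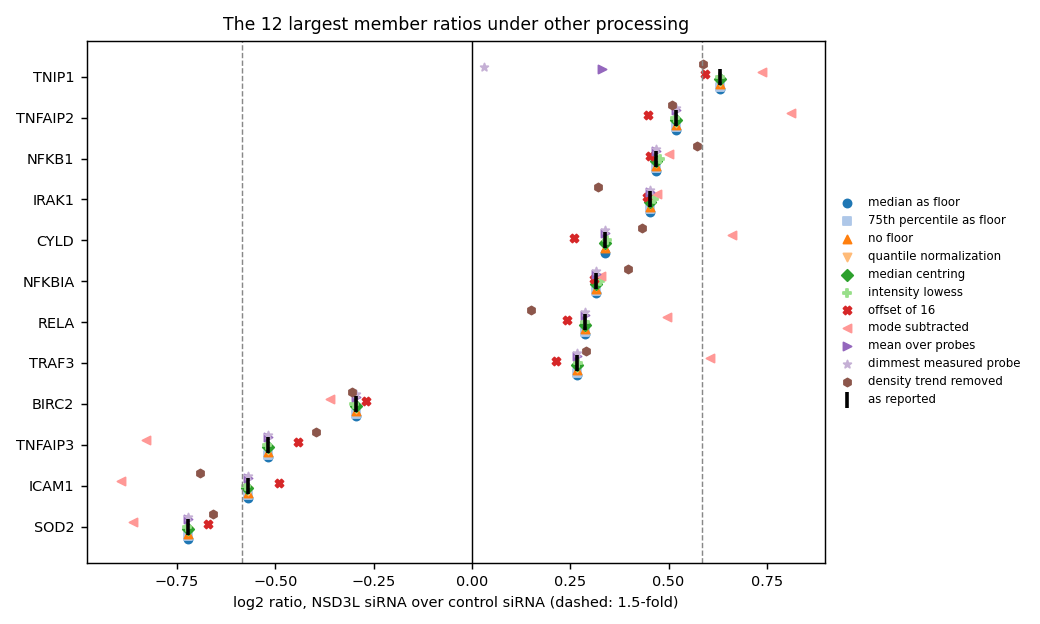
The 12 largest ratios among the measured members as reported (black bars) and under 11 other ways of processing (coloured marks), with 1.5-fold dashed. No ratio crosses 0, though changing the floor leaves ratios as they are by construction. TNIP1 comes nearest, at 0.03 with its dimmest measured probe, and subtracting the mode moves the dim genes outwards.

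Over the whole series, each array held 48701 probes with intensities from 23.8 to 17421 and a median of 38.4, and log2 intensities correlated with a Pearson r of 0.98 across measured genes, which are not independent replicates. The targeted gene was close to the background. Of its 3 NSD3 probes, the 2 annotated to the long isoform read 41.6 against 45.0 and 37.6 against 41.9, and the one annotated to the short isoform 40.8 against 55.3. All were lower with the NSD3L siRNA, but too near the floor to establish depletion of the long isoform. Of 8 markers of MDA-MB-231 cells, 7 were above the floor on both arrays and SPARC on neither, with a summed intensity of 17425 after NSD3L siRNA against 15997 in the control. Of 8 markers of luminal breast cells, the keratin and junction genes KRT8, KRT18, KRT19, CDH1 and EPCAM passed the floor on both arrays and the transcription factors ESR1, GATA3 and FOXA1 on neither. The median log2 ratio of those measured was 0.12. The summed intensity of the 8 was 3326 against 2662. Of 8 blood and macrophage markers, CD14, CD68, CSF1R and LYZ were above the floor on both arrays and PTPRC, ITGAM, CD163 and TYROBP on neither, with sums of 1489 and 1482. Of 8 fibroblast markers, 1 was above it on both arrays and 7 on neither, with sums of 316 and 312. The part of such differences in the members' ratios was not tested.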

How the data were processed

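Gene expression was measured on 2 Illumina beadchips, 1 per siRNA. The authors deposited 1 linear intensity per probe and array. The submitters' processing notes name BeadStudio. Its version and any background correction or scaling were not given in the sources used here. The sorted values of the arrays differed by at most 0.0254 on the log2 scale, the pattern that quantile normalization leaves. Whether the probe annotation is of the array version named in the series text was not established, so gene names rest on matching probe identifiers.

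Probes with 1 gene symbol (23687) were updated through their gene number, found in the RefSeq table for 23651. Each array's floor was its most frequent intensity (the peak of a kernel density below the 75th percentile) times 2, minus its 1st percentile. The log2 ratio was taken without offset from each gene's brightest probe by mean log2 intensity. With 1 array per group no test was possible, and the number of arrays limits the precision. Genes were counted past 2-fold, the threshold in the series text, and past 1.5-fold. The SD of the ratio was taken in 10 equal groups of brightness. The gene summary was tested on simulated data. All 50 members were named, with the 6 largest ratios of each of 2 further lists, IKBKB and the target genes that had only a bound. Members, classes and lists were chosen with earlier results of these data known. Alternatives were other floors, quantile normalization, median centring, lowess (span 0.3), an offset of 16, subtraction of the mode, other probe rules and removal of the density trend. Python 3.11.15 with pandas 2.3.3 and statsmodels 0.14.6 was used.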

Additional observations from a re-analysis of the deposited data

How the results depend on the processing

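Of 421 member ratios under 11 alternative settings, 7 moved by more than the SD of similarly bright genes. Many of the 421 could hardly move, so these counts say little about stability. Changing the floor leaves a member's ratio as it is. The arrays were already matched before quantile normalization or median centring. Other probe rules act only on members with several measured probes. Neither SOD2 nor TNIP1, the only measured members past 1.5-fold, changed sign. Of the 39 measured members, 34 kept their sign under all settings in which they were measured, 19 higher and 15 lower, and LTBR, TRAF1, TRAF4, TAB1 and MYD88 did not. The median over the members ran from 0.01 with the density trend removed to 0.10 with the mode subtracted. No setting brought a member past 2-fold. Lowering the threshold to 1.5-fold gave 1 higher and 1 lower member. At 1.5-fold, subtracting the mode gave 4 higher and 3 lower members, because it enlarges ratios of dim probes. The mean over probes and the dimmest measured probe both gave 0 higher members, through TNIP1. With the density trend removed 2 members were lower, SOD2 and ICAM1, and with no floor 2 were lower, SOD2 and IL1RAP. The median of the effector targets ran from -0.88 with the mode subtracted to -0.23 without a floor. That of the ubiquitin regulators was -0.04 with the 75th percentile as floor, which drops CYLD. The medians of the IKK kinases, the IkB class and the receptors, all near 0, ran from 0.04 to 0.18, 0.04 to 0.11 and 0.05 to 0.12. No paired analysis was possible because each siRNA had 1 array, and no replicate could be left out for the same reason. Readings near the floor could hardly show a difference.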
